A study of Homo sapiens with 3 samples.

Results

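Neuropeptide genes and the genes that package and cut their products were examined for accessible chromatin in neurons made from human stem cells. The set holds 39 of the 20033 protein-coding genes of the RefSeq table for GRCh38, chosen by name for what their products do. It consists of 32 peptide precursor genes and of 7 genes for granins and processing enzymes (VGF, SCG2, CHGA, CHGB, PCSK1, PCSK2 and CPE). The neurons came from KOLF2.1J-hNGN2, a derivative of the human iPSC line KOLF2.1J named for the neuronal transcription factor NGN2, and were assayed by ATAC-seq after 14 days of differentiation. ATAC-seq inserts sequencing adapters into DNA that is not covered by nucleosomes, so it reports open chromatin and not RNA or peptide. There were 3 biological replicates in 1 group, all of 1 cell line, and no other group was analysed here. The values analysed here come from 1 list for all 3 replicates, so none carries an SD or could be checked in single replicates. The list holds a p-value for each summit, and none was computed here.

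Neuropeptides are made as long precursors that enter the regulated secretory pathway and are stored in dense-core vesicles, separately from the small synaptic vesicles that hold fast transmitters. Granins such as chromogranins and secretogranin aggregate in the Golgi and help form these vesicles, while prohormone convertases and carboxypeptidase E cut the precursors into active peptides. A given neuron usually makes only a few of the many peptides, whereas much of the vesicle and processing machinery is shared among peptidergic cells.

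The list held 145092 summits in 65234 distinct regions. For each summit the authors give a fold enrichment over the local background, and the number of sequenced tags under it could be recovered as a whole number from that ratio and the deposited p-value. Tag counts over all summits ran from 58 to 3783, with a median of 189, and the depth of each replicate is unknown. Intervals below are exact Poisson 95% intervals of the tag count with the background held fixed, and cover counting error only, since amplified reads without molecular identifiers are not independent molecules. The neuronal label was checked against markers: 11 of 14 pan-neuronal genes (78.6%) had a region within 1 kb of an outer gene end, against 66.7% of all protein-coding genes, and ELAVL4, RBFOX3 and TUBB3 had none. Of 10 pluripotency genes 3 had one, SOX2, PRDM14 and LIN28A, while 7, with POU5F1 and NANOG in their number, had none. Of 10 neuroendocrine cell markers 7 had one (70.0%), with a median of 4.47-fold. Positions are in hg38 coordinates, and regions are described as inside or outside a gene, since exons and introns were not analysed here.

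A gene was said to have an accessible end when the strongest summit of a region lay within 1 kb of either outer end of the gene. By this measure the granins and processing enzymes were all accessible, 7 of 7, while the peptide precursors were accessible in 15 of 32 cases (46.9%). Over all protein-coding genes the share was 66.7%. The precursors are short genes, with a median length of 5.73 kb against 13.8 kb for the granins and enzymes, and the share among protein-coding genes within their length range was 61.4%. In the length range of the granins and enzymes it was 70.7%. Each range runs from the shortest to the longest gene of its list. The genes in them had median lengths of 12.2 kb and 30.4 kb, so these backgrounds are not matched for length. The precursors thus lay below both backgrounds and the granins and enzymes above both, a difference of 53.1 percentage points between the lists. Genes are not replicates and the members were chosen by name, so the counts carry no test. The gap depends on the window: within 500 bp of an end, 13 of 32 precursors and 4 of 7 granins and enzymes were accessible. The difference was then 16.5 points, because the strongest summits of the CHGA, PCSK1 and PCSK2 regions lie farther into the gene. Each of these regions also holds a weaker summit within 500 bp of the end, in PCSK1 5.59-fold against 5.78. Only the strongest summit of a region was counted. When only regions above the median fold enrichment of all regions were used, 6 precursors and 5 granins and enzymes had an accessible end. The shares of all protein-coding genes at these other settings are not given here.

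**Figure D1:**
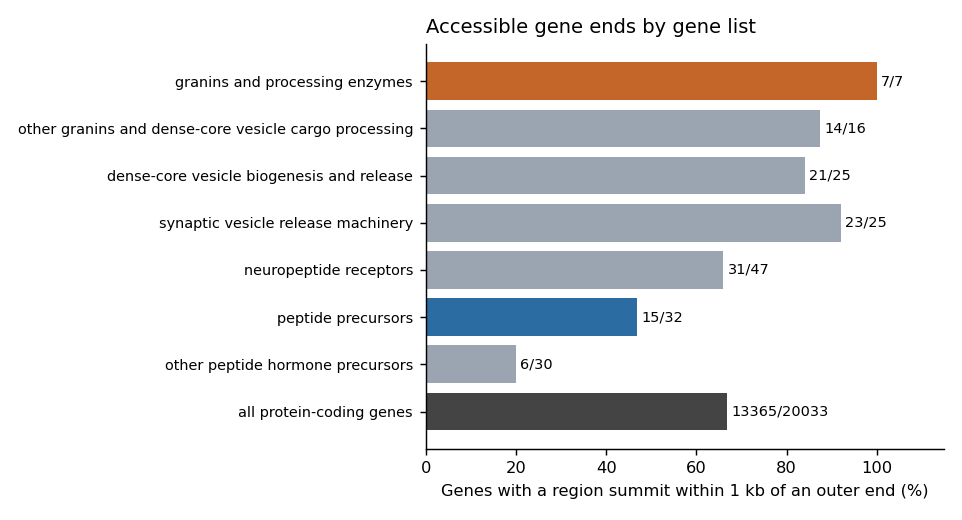
Percent of genes with a region summit within 1 kb of an outer gene end (horizontal axis) for gene lists (vertical axis), with all protein-coding genes, 66.7%, as the lowest bar. The granins and processing enzymes stand at 100% and the peptide precursors at 46.9%, shorter than the bar of all protein-coding genes.

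The accessible ends also differed in strength. The strongest end region of the 15 precursors with one had a median fold enrichment of 4.87 (range 3.37 to 13.3) and a median of 223 tags, and that of the 7 granins and enzymes 7.96 (3.58 to 14.1) and 455 tags. The median over all protein-coding genes with an accessible end was 10.6-fold and 957 tags, so most members were weaker than a typical accessible gene end. A weak region in most cells and a strong region in few cells cannot be told apart in a culture assayed as a whole. Only 4 of the 22 members with an end region exceeded the median fold: CRH among the precursors, and SCG2, CHGB and CPE among the granins and enzymes. By tag count 4 members exceeded the median as well, namely CRH and NMB among the precursors and CHGB and CPE among the others. Broad regions with at least 4 summits were found at 7 of the 22 (31.8%), near the 35.8% of all protein-coding genes with an accessible end.

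**Figure D2:**
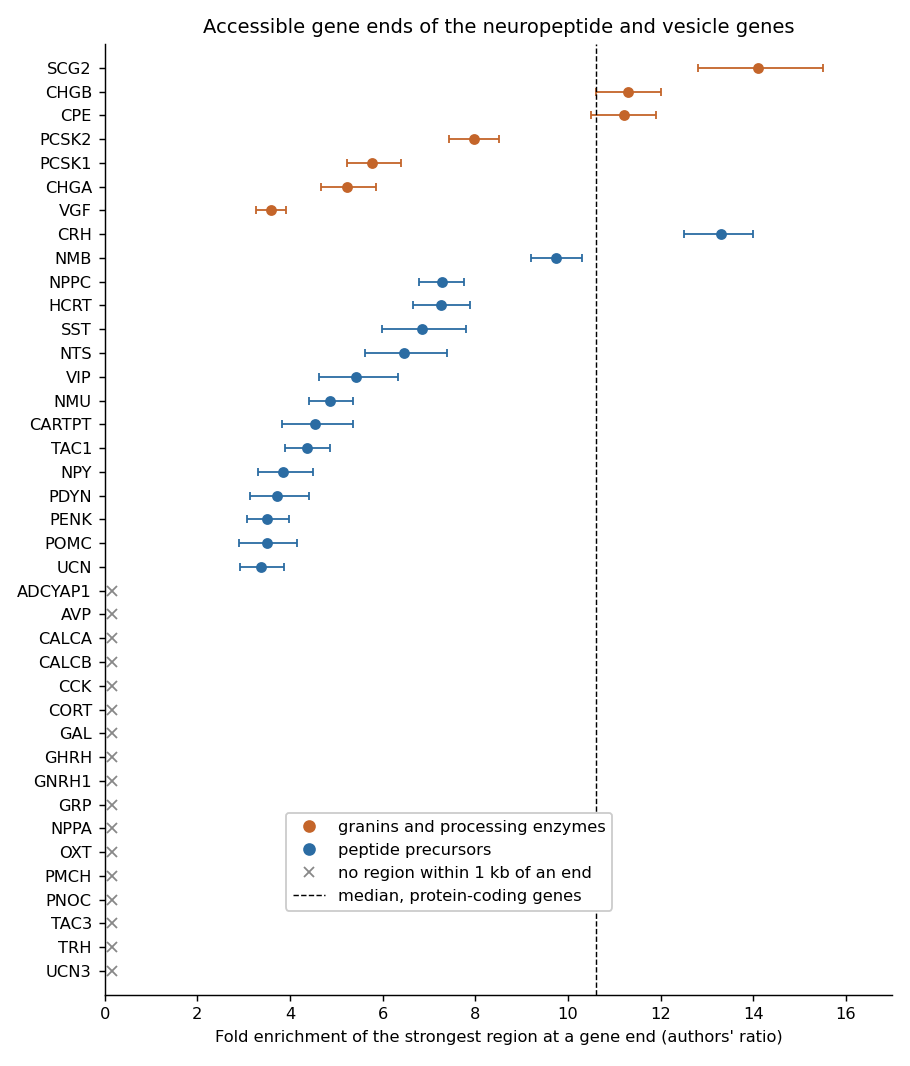
Authors' fold enrichment of the strongest region within 1 kb of a gene end (horizontal axis, linear ratio) for each of the 39 members (vertical axis), where bars are 95% counting intervals, crosses mark genes with no such region and the dashed line is the protein-coding median of 10.6. SCG2 and CRH lie to the right of the line with their whole interval, and 17 precursors have no such region.

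A promoter sequence and a known start were found in the RefSeq table of promoters (GRCh38.p14) for 30 of the 39 members, by symbol. UCN3, PENK, CALCB, PNOC, GNRH1, GAL, CRH, CHGB and SCG2 have no entry there. Each entry covers 250 bases before the start to 50 after it. The cAMP response element (CRE), TGACGTCA, is the site through which CREB-family factors act on activity-dependent genes, and it was searched on both strands. It was present in 5 of the 30 members (16.7%), SST, CARTPT, PCSK1, VGF and CHGA, against 2.59% of the promoters of protein-coding genes. All 5 lay among the 18 members whose start was accessible, and none among the 12 whose start was not. Over protein-coding promoters the element was found in 3.39% of those with an accessible start and in 0.88% of the others. The element began 47 bases before the start in SST, 143 in CARTPT, 77 in PCSK1, 79 in VGF and 54 in CHGA, and with a window from 100 bases before to 50 after the start CARTPT dropped out and 4 members remained.

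The 150 bases before the start of these 5 genes are shown because they hold the element inside an accessible region; they are written 5′ to 3′ on the strand of the gene, from RefSeq GRCh38.p14, with the CRE in capitals. They lie at chr3:187670395-187670544 (minus strand), chr5:71719125-71719274 (plus strand), chr7:101165570-101165719 (minus strand), chr14:92923000-92923149 (plus strand) and chr5:96433249-96433398 (minus strand).
SST: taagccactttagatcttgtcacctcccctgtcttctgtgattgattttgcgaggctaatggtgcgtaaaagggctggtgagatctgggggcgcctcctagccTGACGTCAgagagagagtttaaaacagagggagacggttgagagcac
CARTPT: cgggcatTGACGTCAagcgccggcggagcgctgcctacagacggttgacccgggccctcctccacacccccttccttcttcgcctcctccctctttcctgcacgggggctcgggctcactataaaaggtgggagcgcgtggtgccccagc
VGF: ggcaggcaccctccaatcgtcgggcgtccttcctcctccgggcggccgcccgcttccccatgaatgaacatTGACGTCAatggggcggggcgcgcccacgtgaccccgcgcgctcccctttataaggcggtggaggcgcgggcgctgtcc
CHGA: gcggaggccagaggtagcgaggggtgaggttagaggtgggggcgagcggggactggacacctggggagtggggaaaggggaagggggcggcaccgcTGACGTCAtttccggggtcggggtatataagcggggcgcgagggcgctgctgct
PCSK1: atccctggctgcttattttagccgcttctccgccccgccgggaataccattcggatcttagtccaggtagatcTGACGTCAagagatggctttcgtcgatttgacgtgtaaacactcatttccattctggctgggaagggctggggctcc

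The element lay inside the region at the start in all 5 genes. It was 39 bp from the nearest summit of the region in CHGA, 40 bp in VGF, 106 bp in PCSK1, 128 bp in CARTPT and 152 bp in SST. In CHGA, PCSK1 and CARTPT that summit was not the strongest of the region, and had 281, 368 and 99 tags. From the strongest summit, which stands for the region elsewhere, the element lay 442 bp away in CHGA, 644 bp in PCSK1 and 568 bp in CARTPT. The region covering the SST start had 223 tags (95% interval 195 to 254) and that of CARTPT 138 (116 to 163), while the VGF start had 1091 (1027 to 1158). The same element therefore sat in regions of very different tag count. By fold enrichment these regions were closer, 6.84 for SST, 4.55 for CARTPT and 7.18 for VGF. Their backgrounds were 31.7, 29.5 and 151 tags. A match is a description of the sequence and does not show that a factor was bound.

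The core TGACG, which every full element contains, was found in 16 of 30 member promoters (53.3%), against 29.5% of all protein-coding promoters, and in 11 of the 18 with an accessible start and 5 of the 12 without. Sequences of 3 more precursors are shown for contrast, again as the 150 bases before the start with the core in capitals: VIP, whose accessible start has 2 cores and no full element, AVP, which has 1 core and no region at its start, and CCK, which has neither a core in this stretch nor a region at its start. They lie at chr6:152750647-152750796 (plus strand), chr20:3084725-3084874 (minus strand) and chr3:42266186-42266335 (minus strand) in RefSeq GRCh38.p14.
VIP: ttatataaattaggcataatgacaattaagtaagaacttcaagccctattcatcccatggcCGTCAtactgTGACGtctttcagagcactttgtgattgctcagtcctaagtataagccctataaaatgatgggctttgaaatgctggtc
AVP: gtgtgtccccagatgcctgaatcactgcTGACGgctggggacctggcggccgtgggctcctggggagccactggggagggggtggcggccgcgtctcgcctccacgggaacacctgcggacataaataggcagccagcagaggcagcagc
CCK: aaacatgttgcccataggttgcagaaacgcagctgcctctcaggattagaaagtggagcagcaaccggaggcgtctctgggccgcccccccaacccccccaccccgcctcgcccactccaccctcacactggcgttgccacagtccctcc

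The remaining motifs set the TATA box apart from the rest by its share. The E-boxes CAGATG and CAGCTG, sequences of the kind bound by basic helix-loop-helix factors such as NGN2, were each in 4 of 30 member promoters (13.3%), against 11.7% and 17.7% of all protein-coding promoters. The AP-1 site TGANTCA was in 3 (10.0%), NPPA, PMCH and AVP, none of which had an accessible start, against 5.75%. Over protein-coding promoters the AP-1 site was also rarer with an accessible start, 3.62% against 10.4% of the others. The TATA box, TATAAA, was in 10 (33.3%), against 9.63%, counted at any position and on either strand. It was in 6 of the 18 with an accessible start (SST, CARTPT, VIP, VGF, NPPC and GRP) and in 4 of the 12 without (CORT, NPPA, PMCH and HCRT), against 5.39% and 18.8% of protein-coding promoters. With the window from 100 bases before to 50 after the start, SST and CORT dropped out. The TATA box was then in 8 members (26.7%), against 5.91%. The GC box, GGGCGG, was in 13 (43.3%), below the 58.5% of all promoters. All motifs were searched on both strands, and apart from the core inside the full CRE no motif contains another.

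Start accessibility, where the start is known, gave the same ordering as the outer ends. A region summit lay within 1 kb of the start in 13 of 25 precursors (52.0%) and in 5 of 5 granins and enzymes, against 68.4% of protein-coding genes with a known start. Members with an accessible start had a median of 24.0 CpG dinucleotides in the promoter window (range 2 to 35), and those without had 11.5 (1 to 37). Protein-coding genes had medians of 27.0 and 5.0. The members without a region were thus richer in CpG than other genes without one, and the 2 groups of members overlapped over nearly their whole range. VIP and NTS had accessible starts with 2 CpG each, whereas TRH had 37 and no region.

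**Figure D3:**
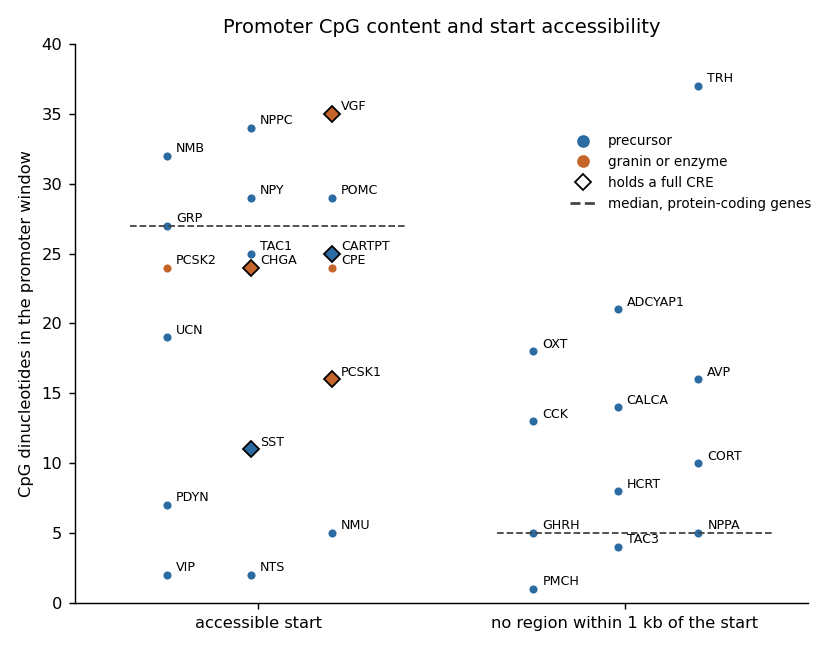
Number of CpG dinucleotides in the 300-base RefSeq promoter window (vertical axis) of the 30 members with an entry, split by whether a region summit lay within 1 kb of the start; diamonds mark a full CRE and dashed lines the protein-coding medians of 27.0 and 5.0. All 5 diamonds are in the left group, and TRH, with 37, stands highest in the right group.

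Among the granins, SCG2 and CHGB had the strongest ends. SCG2 encodes secretogranin II, a precursor of secretoneurin and a vesicle-forming granin, and its end region on chromosome 2 from 223602021 to 223602826 was enriched 14.1-fold (12.8 to 15.5) with 425 tags (386 to 467). This fold lies at the 81.3 percentile of accessible protein-coding ends, but the tag count at the 19.8, since the local background there was at the lowest level in the list, 29.2 tags. CHGB, encoding chromogranin B, had 11.3-fold (10.6 to 12) and 1027 tags (965 to 1092) at chromosome 20 from 5910928 to 5912098. CHGA, encoding chromogranin A, was weaker, with 5.24-fold and 304 tags (271 to 340), and its summit lay 874 bp inside the gene. The known CHGA start lies 486 bp inside the outer end, so this summit was 388 bp from the start, in a region that covers it. At the outer ends SCG2 thus had the higher fold and CHGB the higher tag count.

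VGF encodes a secreted precursor induced by neurotrophins and activity, and its promoter with the CRE is printed above. Its outer-end regions were weak, 3.58-fold with 455 tags and 2.12-fold with 291 tags, and the stronger of them lies within 1 kb of NAT16 as well. The known VGF start lies 3060 bp inside the outer end, and a region at chromosome 7 from 101165295 to 101166188, with its summit 119 bp upstream of that start, had 7.18-fold and 1091 tags. Under the outer-end rule this region counts as distal, so the rule understates VGF.

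All 3 enzymes had an accessible end. CPE, carboxypeptidase E, which trims the basic residues left after cleavage, was the strongest, with 11.2-fold (10.5 to 11.9) and 1006 tags (945 to 1070) at chromosome 4 from 165378565 to 165379655. PCSK2, a convertase that cuts precursors in mature vesicles, had 7.96-fold and 882 tags (825 to 942), 817 bp from the end. PCSK1, the convertase that acts early in the pathway, had 5.78-fold and 383 tags (346 to 423), 567 bp from the end, in a region shared with the end of LOC102724070. The tag intervals of CPE and PCSK2 do not overlap, nor do those of PCSK2 and PCSK1, while the interval of CPE overlaps that of CHGB.

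Among precursors, CRH, which encodes the corticotropin-releasing hormone that starts the pituitary stress response, had the strongest end. Its region was enriched 13.3-fold (12.5 to 14.0) with 1181 tags (1115 to 1250), 680 bp inside the gene, the 73.7 percentile of accessible protein-coding ends by fold and 62.3 by tags. CRH has no promoter entry, so this end cannot be named its start or its downstream end. CRH was no longer counted as accessible with a 500 bp window. Its interval overlaps that of SCG2 by fold and lies above it by tags. The next precursor was NMB, encoding neuromedin B, with 9.75-fold and 1116 tags (1051 to 1183), but that region is at the downstream end of NMB and shared with the end of WDR73. The region at the NMB start had 4.75-fold and 537 tags. NPPC, encoding C-type natriuretic peptide, followed with 7.27-fold and 877 tags (820 to 937) over a region of 2169 bp. HCRT, encoding the orexin peptides of the lateral hypothalamus, had 7.26-fold and 547 tags (502 to 595), but the region lies 1193 bp downstream of its start, and does not cover it.

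Several precursors with an end region encode peptides found in cortical interneurons. SST, encoding somatostatin, had 6.84-fold and 223 tags at chromosome 3 from 187669705 to 187670755, VIP, encoding vasoactive intestinal peptide, 5.43-fold and 163 tags (139 to 190), and NPY, encoding neuropeptide Y, 3.86-fold and 166 tags (142 to 193) over a region of 2192 bp with 7 summits. CCK, encoding cholecystokinin, had no region at an end and its nearest summit was 2.62 kb away, inside the gene. The opioid precursors all lay below the protein-coding median or had no end region. PENK had 3.5-fold and 246 tags (216 to 279) in a region shared with PENK-AS1, PDYN 3.73-fold and 140 tags (118 to 165), and POMC, which also gives rise to melanocortins, 3.5-fold and 124 tags (103 to 148), whereas the nearest summit to PNOC was 3.35 kb away. Of the tachykinin genes, TAC1, encoding substance P, had 4.36-fold and 313 tags (279 to 350) with the summit 3 bp from its start, and TAC3 had no end region.

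NTS, encoding neurotensin, had 6.45-fold and 210 tags (183 to 240). NMU, encoding neuromedin U, had 4.87-fold and 427 tags (387 to 469) in a region of 1977 bp with 7 summits. CARTPT, encoding a feeding-related peptide, had 4.55-fold and 138 tags. UCN, encoding urocortin, had 3.37-fold and 199 tags (172 to 229) in a region shared with TRIM54. Over all members, 9 had a strongest end region of fewer than 250 tags, all of them precursors.

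The 17 precursors without an end region were AVP, OXT, TRH, GNRH1, GHRH, PMCH, CCK, TAC3, PNOC, GAL, ADCYAP1, CALCA, CALCB, GRP, UCN3, CORT and NPPA. The distance from their nearest gene end to the nearest summit separated them. For 7 of them the nearest summit was within 5 kb: GRP at 1223 bp, CALCB at 1484, TAC3 at 1672, CALCA at 1963, and ADCYAP1, CCK and PNOC at 2.24, 2.62 and 3.35 kb. For another 7 it was more than 15 kb away, from 17.6 kb for OXT to 28.5 kb for AVP. The members just inside the 1 kb limit were CHGA at 874 bp, PENK at 835 bp and PCSK2 at 817 bp. A start region was found for GRP, 3.94-fold with 159 tags (135 to 186), because its known start is 969 bp inside the outer end. At CALCB a listed region of 6.41-fold and 575 tags, from 15073222 to 15075261, covers the outer end at 15073593. It was not counted because its strongest summit lies 1484 bp from that end, and it counts as a distal region of CALCB. CALCB had an accessible end when every summit entry or any overlap was used, as did GRP with any overlap. A gene end without a listed region did not pass the selection of the list at this depth. This does not show that it was closed in every cell.

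Of the 25 end regions at 22 members, 6 also lay within 1 kb of the end of another gene, at PENK, UCN, NMB, VGF and PCSK1. The share over end regions of all protein-coding genes is not given here, so this count cannot be called high or low. For PENK, UCN and PCSK1 no unshared end region was found, and these regions cannot be assigned to 1 gene.

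Distal regions were defined as those with a summit over 1 kb from every annotated gene end and within 50 kb of an end of the member. At least 1 was found at 35 of 39 members (89.7%), against 83.2% of protein-coding genes, and the median number was 2.0, equal to that of all protein-coding genes. None was found at VIP, HCRT, NMB or CHGA. The precursors had a median of 2.0 and the granins and enzymes 6.0. The latter value depends on the setting: the medians were 1.0 and 2.0 within 20 kb and also among regions above the median fold, and 2.0 and 4.0 with a 2 kb end window or with any overlap. Because both ends of a gene are searched, more sequence was covered at long genes such as PCSK2 (258 kb) and CPE (120 kb). The median of protein-coding genes in the length range of the granins and enzymes was 2.0. At least 5 distal regions were found at 7 members (17.9%), against 15.9%, made up of 3 of 32 precursors (GHRH, TRH and PNOC) and 4 of 7 granins and enzymes (SCG2, PCSK2, CPE and VGF, which counts its own start among 6). In the length range of the precursors 9.81% of protein-coding genes had at least 5, near the 9.38% of the precursors, and in that of the granins and enzymes 16.9%. In all, 105 distinct regions were near members, with a median fold enrichment of 5.25 (range 2.14 to 13.1), close to the 5.11 of all distal regions.

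**Figure D4:**
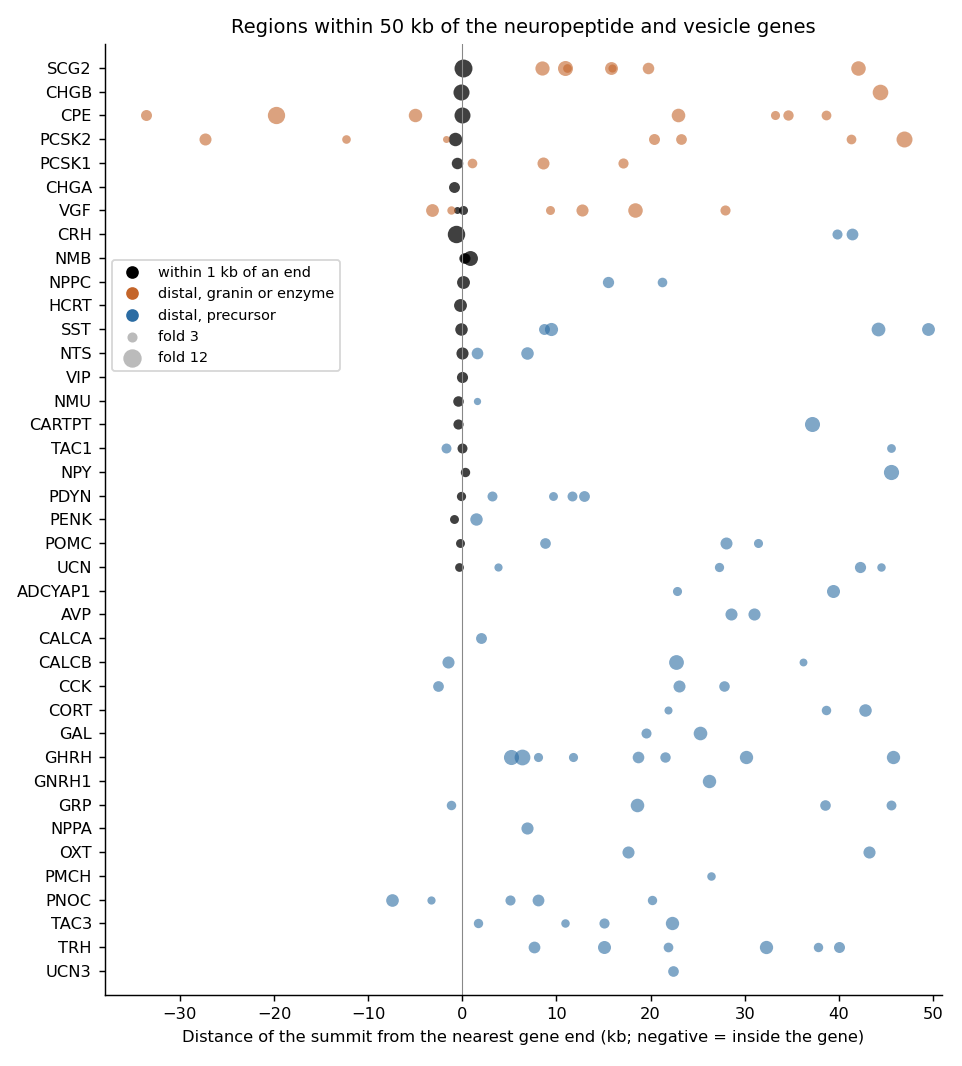
Distance in kb of every end and distal region (points) from the gene ends, with 1 row per member; negative values are inside the gene, black points are within 1 kb of an end, and point size follows fold enrichment. The rows of SCG2, CPE, PCSK2, GHRH and TRH carry 6 to 8 distal points each, and those of VIP, HCRT, NMB and CHGA carry none.

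Members differed in whose gene the distal regions were nearest to. All 7 distal regions of SCG2 had SCG2 as the nearest protein-coding gene, the strongest at 10.9 kb with 9.88-fold and 578 tags, followed by 9.26-fold at 42.0 kb and 8.84-fold at 8.51 kb. All 6 of TRH were likewise nearest TRH, the strongest 7.72-fold at 32.3 kb, although TRH had no end region. CPE had 7, of which 5 were nearest CPE, and the strongest distal region of the whole set, 13.1-fold with 578 tags, lay inside CPE 19.8 kb from an end. PCSK2 also had 7, 4 of them nearest PCSK2, but its strongest, 11.2-fold with 1143 tags, lay 46.9 kb away inside BFSP1. GHRH had the most, 8, yet 6 were nearest RPN2, leaving the 10.9-fold region with 962 tags at 6.31 kb and 1 other nearest GHRH. Of the 6 of VGF, 2 were nearest VGF, 1 of which is the region at its own start.

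Other precursors had single strong distal regions. NPY had 10.1-fold and 574 tags at 45.5 kb, and CARTPT 9.93-fold and 299 tags at 37.1 kb, in both cases with the precursor as the nearest coding gene. PENK had 6.77-fold and 482 tags at 1.45 kb, more than the 246 tags at its end. SST had 4, of which those at 9.39 kb (7.59-fold, 305 tags) and 8.65 kb (5.25-fold, 209 tags) were nearest SST. The 4 of PDYN were all nearest PDYN but weak, from 3.47 to 5.14-fold. CRH had 2, at 41.4 and 39.8 kb, with 6.1 and 4.43-fold, well below the 13.3-fold at its end. AVP and OXT, which lie side by side and encode vasopressin and oxytocin, shared their 2 distal regions, of 6.44 and 6.4-fold, neither of them nearest AVP or OXT.

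Of the 18 members with both an end and a distal region, the strongest distal region had the higher fold enrichment in 12 (66.7%), against 32.6% of protein-coding genes with both. This held for 8 of 12 precursors and 4 of 6 granins and enzymes. The share was above 32.6% in every other named gene list as well, so it was not particular to the members. It was 56.5% for the synaptic vesicle release genes, 64.0% for the neuropeptide receptors and 81.8% for the pan-neuronal markers. The strongest distal region had a median of 6.88-fold over members (10.3 for the granins and enzymes), against 7.38 over protein-coding genes. The strongest end region had 5.61-fold over members, against 10.6. The distance to a gene does not show which gene a region acts on.

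The wider pathway was read from lists of other genes. Of 16 other granins and cargo-processing genes, 14 had an accessible end (87.5%), with a median of 7.75-fold and SCG3, encoding secretogranin III, highest at 12.8. Of 25 genes for dense-core vesicle biogenesis and release, 21 had one (84.0%), with a median of 9.47-fold, ARFIP2 at 15.4 and CCDC186 at 15.1, and without CADPS, BAIAP3, DYSF and SYT9. The synaptic vesicle release genes had 23 of 25 (92.0%) and a median of 9.6-fold. The neuropeptide receptors, with 31 of 47 (66.0%) and 5.49-fold, were near the protein-coding share, and the other peptide hormone precursors, with 6 of 30 (20%), were lower than the 32 precursors. Precursors of secreted peptides thus had a smaller share of accessible ends than each of the vesicle gene lists. The genes of these other vesicle lists were also longer, with medians of 34.1, 74.7 and 87.5 kb in the order given. The precursors had 5.73 kb and the other hormone precursors 4.12 kb. An effect of gene length on these shares was not tested.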

How the data were processed

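Per the labels' protocols, Tn5 libraries were made from 3 biological replicates of KOLF2.1J-hNGN2 neurons. The submitters' processing notes name the hg38 build; the aligner, peak caller and their filters are not given in the sources used here. The deposited list holds, for each summit, a fold enrichment (a linear ratio), −log10 p and −log10 q, and a whole-number score whose scaling is not stated, all as the authors deposited them. The list is pooled, named in the labels as an optimal set by irreproducible discovery rate, and no value per replicate was analysed here.

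Entries that share both bounds form 1 region, represented by its entry of highest −log10 p. Tag counts were recovered from the fold and −log10 p under a Poisson tail with a pseudocount of 1, with every entry within 0.00079 −log10 units of a whole count. The recovery was tested on simulated data. Gene bounds, promoters and starts came from RefSeq GRCh38.p14 tables matched by symbol; the bounds carry no strand, so outer ends stand for starts unless a promoter entry was found. All 39 members are named, with at most the 5 genes of highest fold from other lists; genes of those lists named for having no end region, and SOX2, PRDM14 and LIN28A, were chosen after their values were seen. The members and lists were chosen with earlier results of these data known. The length-range backgrounds, the distance from a CRE to the nearest summit, and the count and width of summits were chosen after seeing the data. Python 3.11.15, numpy 2.4.6, scipy 1.17.1, pandas 2.3.3 and matplotlib 3.10.9 were used. With 1 pooled list there is no test between samples, and p-values are not given. Alternatives were other windows, a score minimum, regions above the median fold, every summit entry, any overlap, unshared regions and starts only.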

Additional observations from a re-analysis of the deposited data

How the results depend on the processing

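No paired analysis was possible because there is only 1 group, and its pooled list does not allow a replicate to be left out. The number of members with an accessible end, 22, fell to 11 with regions above the median fold enrichment, and was 17 to 26 under the others. It was 17 within 500 bp, 26 within 2 kb, 21 with a score of at least 830, 23 with every summit entry, 24 with any overlap, 19 without shared regions and 18 of 30 by start only. The median number of distal regions, 2.0, became 1.0 above the median fold, 5.0 with every entry, 1.0 within 20 kb and 4.0 within 100 kb. The difference between granins with enzymes and precursors, 53.1 points, fell to 16.5 within 500 bp and was 40.6 to 56.2 under the other settings, with the same direction in each. The depth of single replicates is unknown, and absence from the list means only that a region did not pass its selection.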

Other observations

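Of the neuropeptide receptor genes with the highest fold enrichment at an end, MC4R had 14.7, NMBR 14.5, GALR2 14.2, OXTR 11.6 and GRPR 10.9. The precursors of their ligands were weaker or without an end region: POMC had 3.5-fold, NMB 9.75-fold at its downstream end, and GAL, OXT and GRP had none. GRP did have a region at its known start, of 3.94-fold. The GALR2 region was not within 1 kb of its known start. These pairs were chosen after their values were seen. The receptors were picked for the highest fold among 47 genes, of which 31 had an end region, with a median of 5.49-fold. The pairs thus do not compare receptors and precursors as groups.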
